A study of Mus musculus with 4 samples.

Results

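Array comparative genomic hybridisation was used to read 7 genes of the necroptosis and caspase-8 pathway in mouse liver DNA. The genes, Ripk3, Ripk1, Mlkl, Zbp1, Casp8, Cflar and Bid, were taken by the names given on the array, and all 7 were measured. They are 7 of 20445 named autosomal genes, and their 17 probes are 17 of 52385 autosomal probes. The study had 4 samples, labelled TAK1LPC-KO_RIP3-_-, which the title describes as liver parenchymal cells deficient for TAK1 in a Rip3 double knockout. Each sample carried Cy5 and shared its array with a Cy3-labelled pool of DNA from 4 normal livers, the only control. The sources used here do not give the promoter that drives removal of TAK1, the age, strain and sex of the animals, or the genotype and strain of the pool. DNA came from formalin-fixed, paraffin-embedded sections, so cells of the section in which TAK1 was not removed may have contributed DNA. Genomic DNA does not report cell type markers, so the labelled tissue was not checked in that way.

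Necroptosis is a lytic form of cell death that can follow TNF receptor signalling when caspase-8 is held inactive. RIPK1 and RIPK3 are kinases that assemble through a shared interaction motif, after which RIPK3 phosphorylates MLKL and MLKL permeabilises the plasma membrane. ZBP1 senses Z-form nucleic acids and engages RIPK3 directly. Caspase-8, with its relative cFLIP (encoded by Cflar), cleaves RIPK1 and RIPK3 and so restrains this route, and it cleaves BID to start the mitochondrial route of apoptosis. In hepatocytes, BID links death receptors to the caspases that kill the cell. TAK1 is the kinase upstream of NF-kB that protects liver cells from death after TNF.

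Each value below is a log2 ratio of sample over pool, centred on the median of the autosomal probes of its array, so 0 is the typical autosomal probe. A ratio was called at an adjusted p under 0.05 and a mean at least 0.25 from 0. Replicates 1 and 2 shared a slide, and replicates 3 and 4 shared another. The scanner software rated 84.3% to 89.9% of spots per array as well above background for the sample and 94.4% to 97.7% for the pool. The same rule called 35.4% of all autosomal genes and 36.9% of all autosomal probes. Every array has the same pool and dye orientation, so an effect of either cannot be told apart from a difference of the samples. The X chromosome, at a median of -0.86 ± 0.025 (SD, n = 4), gives the size of a difference shared by a whole chromosome on these arrays. The labels do not tie the samples to separate animals, so p-values measure only how these 4 samples spread, which may be technical. With only 4 arrays, which bounds how precise any value can be, the exact two-sided sign-flip test cannot give a p below 0.125.

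The sequences of 8 of the 17 probes follow, numbered within each gene by position on build mm9, with the strand not given in the files. They are the pair on the knocked-out gene, the 3 probes whose difference from the pool held in every alternative setting, the 2 probes that were dim in the sample on every array, and the Casp8 probe printed 6 times per array. Capitals mark the longest run of A and T, or the leftmost such run where several are equally long.
Ripk3 probe 1 (chr14:56403814-56403872): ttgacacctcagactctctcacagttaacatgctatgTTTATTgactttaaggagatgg
Ripk3 probe 2 (chr14:56405441-56405496): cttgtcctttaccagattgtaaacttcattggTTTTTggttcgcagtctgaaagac
Ripk1 probe 1 (chr13:34113270-34113329): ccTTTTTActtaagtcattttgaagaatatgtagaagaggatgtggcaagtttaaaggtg
Mlkl probe 1 (chr8:113840276-113840335): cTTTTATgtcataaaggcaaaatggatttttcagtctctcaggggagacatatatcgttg
Zbp1 probe 2 (chr2:173043973-173044032): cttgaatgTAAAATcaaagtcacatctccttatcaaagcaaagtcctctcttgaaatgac
Zbp1 probe 1 (chr2:173032299-173032358): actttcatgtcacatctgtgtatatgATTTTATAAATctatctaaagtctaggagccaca
Bid probe 1 (chr6:120852854-120852913): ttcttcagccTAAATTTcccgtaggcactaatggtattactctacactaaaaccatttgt
Casp8 probe 3 (chr1:58901214-58901273): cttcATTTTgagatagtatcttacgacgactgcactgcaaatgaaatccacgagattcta
Over all autosomal probes the GC percent went with the pool signal (Spearman's rho 0.34 across 52385 probes, which share 4 arrays and are not independent), whereas the length of the A and T run did not (rho -0.033). None of the 17 sequences lay in the 7 RefSeq promoter windows (GRCm38.p6) found for 6 of the genes. No mm9 exon or intron annotation was used.

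Ripk3, the gene that the label gives as knocked out, showed no loss at either of its probes. The gene mean was -0.075 ± 0.063 (SD, n = 4), with replicates 1 to 4 at -0.0019, -0.045, -0.12 and -0.14 (limma, adjusted p = 0.370). The 95% interval of the mean ran from -0.22 to 0.074. Probe 1 gave 0.013, 0.011, -0.024 and -0.11 on replicates 1 to 4, on both sides of 0. Probe 2 gave -0.017, -0.10, -0.21 and -0.17, below the pool on all 4 arrays and not past the threshold (mean -0.12 ± 0.084, limma adjusted p = 0.268). The probes are 1.627 kb apart and differed by 0.097 ± 0.068, the smallest such difference among the 7 genes.

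Both Ripk3 probes gave clear signal from the knockout DNA. In the sample channel probe 1 had processed intensities of 861, 910, 838 and 795, against 867, 930, 853 and 850 in the pool. Probe 2 had 937, 766, 812 and 842 in the sample and 963, 847, 941 and 938 in the pool. On the same arrays the dimmest spot still well above background in the sample channel read 239 to 318. The sources used here do not say which part of Ripk3 was deleted. A probe outside that part would read as present in a knockout, so these ratios do not check the label.

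The surroundings of Ripk3 were also close to 0 in their median, with single probes from -0.77 to 0.59. The 51 other probes within 500 kb had a median of 0.060 ± 0.045 (SD, n = 4), with chromosome 14 as a whole at 0.11 ± 0.0077. Against that median Ripk3 probe 1 lay at -0.087 ± 0.086 and probe 2 at -0.18 ± 0.074, and neither passed the threshold (limma, adjusted p = 0.481 and 0.145). The nearest named genes were Adcy4, an adenylyl cyclase 2.599 kb to the left, at 0.0070 ± 0.11, and Nfatc4, a calcium-regulated transcription factor to the right, at 0.29 ± 0.23. Neither was called (limma, adjusted p = 0.944 and 0.0550).

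Ripk1, which encodes the kinase that recruits RIPK3, lay above the pool. Its gene mean was 0.46 ± 0.19 (SD, n = 4), with replicates at 0.31, 0.28, 0.65 and 0.61 (limma, adjusted p = 0.00871). The difference came mainly from probe 1, which read 0.64, 0.70, 0.84 and 0.68, a mean of 0.71 ± 0.088. That probe was bright in both channels, at 1678 to 1797 in the sample and 1006 to 1168 in the pool. All 4 arrays lay in a narrow band far from 0 (limma, adjusted p = 0.00206). Probe 2, 11.067 kb away, read -0.018, -0.15, 0.45 and 0.53, near or below 0 on slide 1 and above it on slide 2.

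Part of the Ripk1 excess was shared by its neighbours. The 20 other probes within 500 kb had a median of 0.22 ± 0.060, and chromosome 13 as a whole had 0.18 ± 0.037. Bphl, a hydrolase gene 14.419 kb to the right, lay at 0.41 ± 0.11 and Serpinb6a, a serine protease inhibitor gene to the left, at 0.27 ± 0.090, and both were called (limma, adjusted p = 0.00594 and 0.0210). After subtraction of the neighbour median, probe 1 of Ripk1 still lay at 0.49 ± 0.098 (limma, adjusted p = 0.00757). Probe 2 then lay at -0.020 ± 0.29 and did not pass (adjusted p = 0.913 by limma). Single neighbours ran from -0.31 to 0.83. Some lay above the 0.715 of probe 1, among them a Serpinb6a probe at 0.827 and a Bphl probe at 0.719, so probe 1 was not outside the range of its locus.

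Mlkl, which encodes the membrane-permeabilising effector, had 1 probe far above the pool and 2 at or below it. The gene mean, 0.20 ± 0.13 (SD, n = 4), was short of the threshold (limma, adjusted p = 0.0719), and it went to -0.0039 when the median of the 3 probes was taken. Probe 1 read 0.74, 0.52, 0.90 and 1.11 on replicates 1 to 4, a mean of 0.82 ± 0.25 (limma, adjusted p = 0.00327). It was well above background on all 4 arrays, but its pool signal of 229 to 360 was low. Probe 2 read -0.27, -0.30, 0.22 and -0.085, and probe 3 read -0.083, -0.064, -0.18 and -0.12. On each array probe 1 exceeded probe 3, 11.464 kb away, by 0.58 to 1.23.

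The locus of Mlkl shared the offset of chromosome 8. Its 43 neighbouring probes had a median of 0.17 ± 0.063, and the whole chromosome had 0.16 ± 0.010. Single neighbours ran from -0.84 to 1.29, a range that holds all 3 Mlkl probes. Against the neighbour median probe 1 was higher by 0.63 ± 0.30 and probe 3 was lower, at -0.29 ± 0.053 (limma, adjusted p = 0.00986 and 0.0392). The call of probe 3 was lost in 7 of 14 alternative settings, each leave-one-out fit among them. Fa2h, a fatty acid hydroxylase gene to the right, lay at 0.012 ± 0.13 and Rfwd3, a ubiquitin ligase gene to the left, at -0.14 ± 0.42, and neither was called (limma, adjusted p = 0.906 and 0.486).

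Zbp1, the nucleic acid sensor upstream of RIPK3, had the lowest gene mean of the 7, -0.665 ± 0.25 (SD, n = 4; limma, adjusted p = 0.00432). Replicates 1 to 4 read -0.58, -0.88, -0.35 and -0.84. Its well-measured probe 2 read -0.61, -0.41, -0.37 and -0.42, a mean of -0.45 ± 0.11, below the pool on all 4 arrays (limma, adjusted p = 0.00789). That probe was among the brightest of the 17, with 994 to 1232 in the sample against 1546 to 1676 in the pool. Probe 1 read -0.55, -1.35, -0.34 and -1.27, but its sample signal of 55.5 to 145 was not well above background on any array. The bound for that probe was under 1-fold, so no size is given for it. Normexp background correction put probe 1 at 0.13 and the gene at -0.19.

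Zbp1 also lay below the median of its 29 neighbouring probes, -0.014 ± 0.040. Probe 2 was lower than that median by 0.44 ± 0.13 on average (limma, adjusted p = 0.0124). Single neighbours ran from -0.98 to 2.39, a range that holds both Zbp1 probes. Of these neighbours 15 (51.7%) were called against the pool, where the rule called 36.9% of all autosomal probes. To the right Pmepa1, a membrane adaptor gene, lay at 0.18 ± 0.060 and was not called (limma, adjusted p = 0.0632). To the left lay Pck1, the gluconeogenic enzyme gene, whose only probe read 2.39 ± 0.43 and was called (limma, adjusted p = 0.000587).

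**Figure D1:**
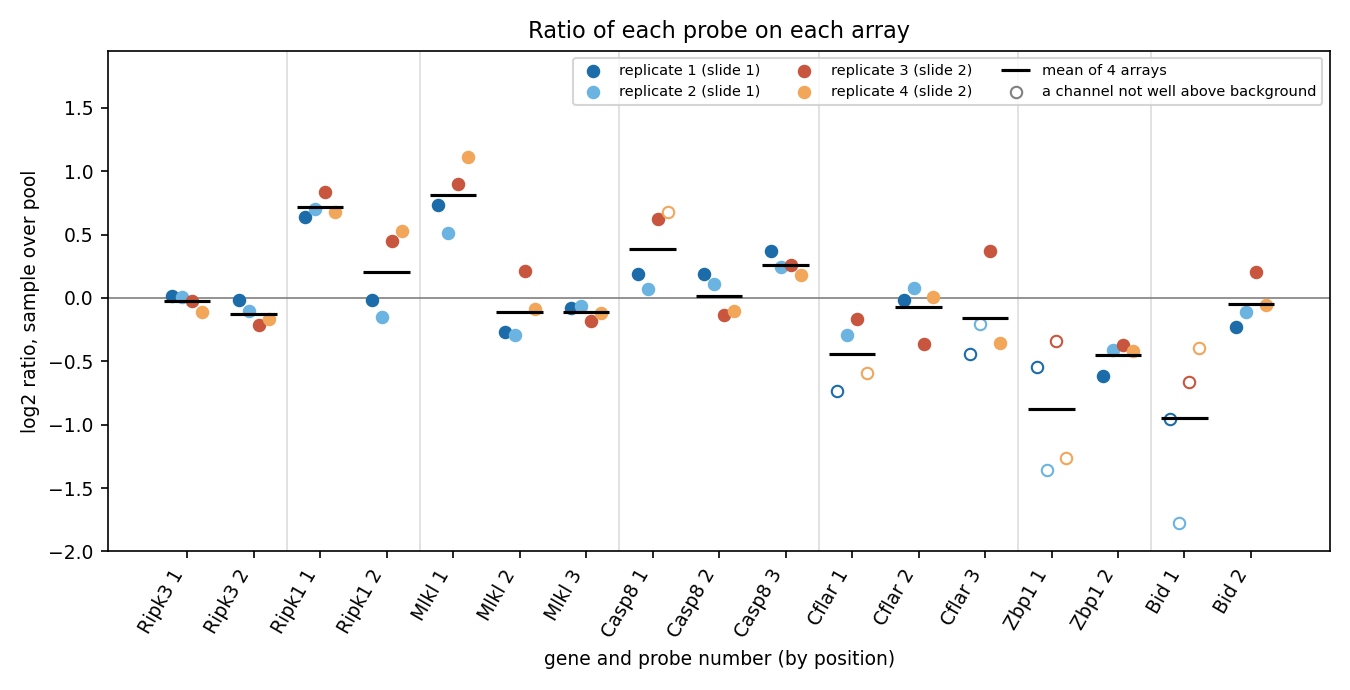
The log2 ratio of sample over pool (vertical axis) is plotted for each of the 17 probes of the 7 genes, with a point for each of the 4 arrays, a black line for their mean and open points where a channel was not well above background. The Ripk3 points sit close to 0, those of Ripk1 probe 1 and Mlkl probe 1 lie between 0.52 and 1.11, and the widest columns, Zbp1 probe 1 and Bid probe 1, hold open points only.

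Casp8 and Cflar lie side by side on chromosome 1, and neither gene was called. Casp8, the protease that restrains necroptosis, had a gene mean of 0.22 ± 0.053 (SD, n = 4), with replicates at 0.25, 0.14, 0.25 and 0.25. Its adjusted p was 0.0291 by limma, but the mean fell short of the size limit. Cflar, which encodes the regulator of caspase-8, had -0.22 ± 0.16, with replicates at -0.40, -0.14, -0.053 and -0.31 (limma, adjusted p = 0.0622). Casp8 exceeded Cflar on all 4 arrays, by 0.65, 0.28, 0.30 and 0.56, although their nearest probes are only 48.471 kb apart. Both means were smaller in some other settings and larger in others. Casp8 stood at 0.15 with normexp and at 0.14 with well-measured probes only (limma, adjusted p = 0.0270 and 0.122). Cflar stood at -0.067 and -0.073 in those settings (limma, adjusted p = 0.301 and 0.496). With the GC correction Casp8 stood at 0.24 and Cflar at -0.25. The median of probes put Casp8 at 0.18 and Cflar at -0.29, where Cflar was called (limma, adjusted p = 0.0230).

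The 3 probes of Casp8 differed in how steady they were. Probe 3, printed 6 times per array, read 0.37, 0.25, 0.26 and 0.18, a mean of 0.26 ± 0.081 (limma, adjusted p = 0.0411). Its 6 spots varied within an array by an SD of 0.067 to 0.18, against a median of 0.22 to 0.25 over all autosomal probes printed 6 times. Probe 1 read 0.19, 0.073, 0.62 and 0.68 (mean 0.39 ± 0.31, limma adjusted p = 0.0476), higher on slide 2, where its pool signal fell to 255 and 174 from 393 and 400 on slide 1. Probe 2 read 0.19, 0.11, -0.14 and -0.11 and lay on both sides of 0. Probes 1 and 3 were also higher than the median of their neighbours, by 0.52 ± 0.30 and 0.37 ± 0.072 (limma, adjusted p = 0.0202 and 0.0179). Leaving out any 1 replicate ended the call of probe 3 against the pool (limma, adjusted p from 0.0747 to 0.132), and without replicate 3 or 4 probe 1 lost both of its calls. With slide as a random block or slide means as 2 samples, probe 1 was not called against the pool either (limma, adjusted p = 0.0503 and 0.0723).

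In Cflar the lowest probe was a dim one. Probe 1 read -0.73, -0.29, -0.17 and -0.59 and was called (mean -0.45 ± 0.26, limma adjusted p = 0.0229). Its sample signal of 238 to 335 was well above background on only 2 of 4 arrays. Probe 2, with sample signals of 1142 to 1637, read -0.016, 0.080, -0.36 and 0.0084, and probe 3 read -0.44, -0.21, 0.37 and -0.35. Neither was called (limma, adjusted p = 0.596 and 0.415). Normexp put probe 1 at -0.079 (limma, adjusted p = 0.410), and leaving out replicate 1 or 4 also ended its call (adjusted p = 0.0781 and 0.0760).

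The 2 genes share most of their neighbourhood, and each counts among the neighbours of the other. The 54 probes around Casp8 had a median of -0.13 ± 0.014 and the 57 around Cflar -0.080 ± 0.019, with chromosome 1 as a whole at -0.084 ± 0.015. Around each gene single probes ran from -0.68 to 0.62. Trak2, a kinesin adaptor gene to the right of Casp8, lay at -0.27 ± 0.21, and the transcript ENSMUST00000149874 to the left of Cflar at -0.32 ± 0.38. Neither was called (limma, adjusted p = 0.0584 and 0.120).

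Bid, whose product carries the caspase-8 signal to mitochondria, was called below the pool on the strength of 1 dim probe. The gene mean was -0.50 ± 0.34 (SD, n = 4; limma, adjusted p = 0.0249), with replicates at -0.59, -0.94, -0.23 and -0.22. Probe 1 read -0.96, -1.78, -0.66 and -0.39, with sample signals of 86.7 to 153 that were not well above background on any array. Its bound was also under 1-fold, so no size is given. Probe 2, 10.821 kb away and well above background on all 4 arrays, read -0.23, -0.11, 0.20 and -0.054, a mean of -0.049 ± 0.18 (limma, adjusted p = 0.719). The gene call ended without replicate 1, at -0.47, and without replicate 2, at -0.35 (limma, adjusted p = 0.0806 and 0.0567). With probe 2 alone the gene stood at -0.049.

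The neighbours of Bid lay close to 0 in their median. Their 50 probes had a median of -0.095 ± 0.034, against 0.014 ± 0.013 for chromosome 6, and single probes ran from -0.99 to 0.67. Bcl2l13, a relative of BCL-2 and the next named gene to the left, lay at -0.19 ± 0.12, and the transcript ENSMUST00000098457 to the right at 0.020 ± 0.061. Neither was called (limma, adjusted p = 0.0742 and 0.823).

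**Figure D2:**
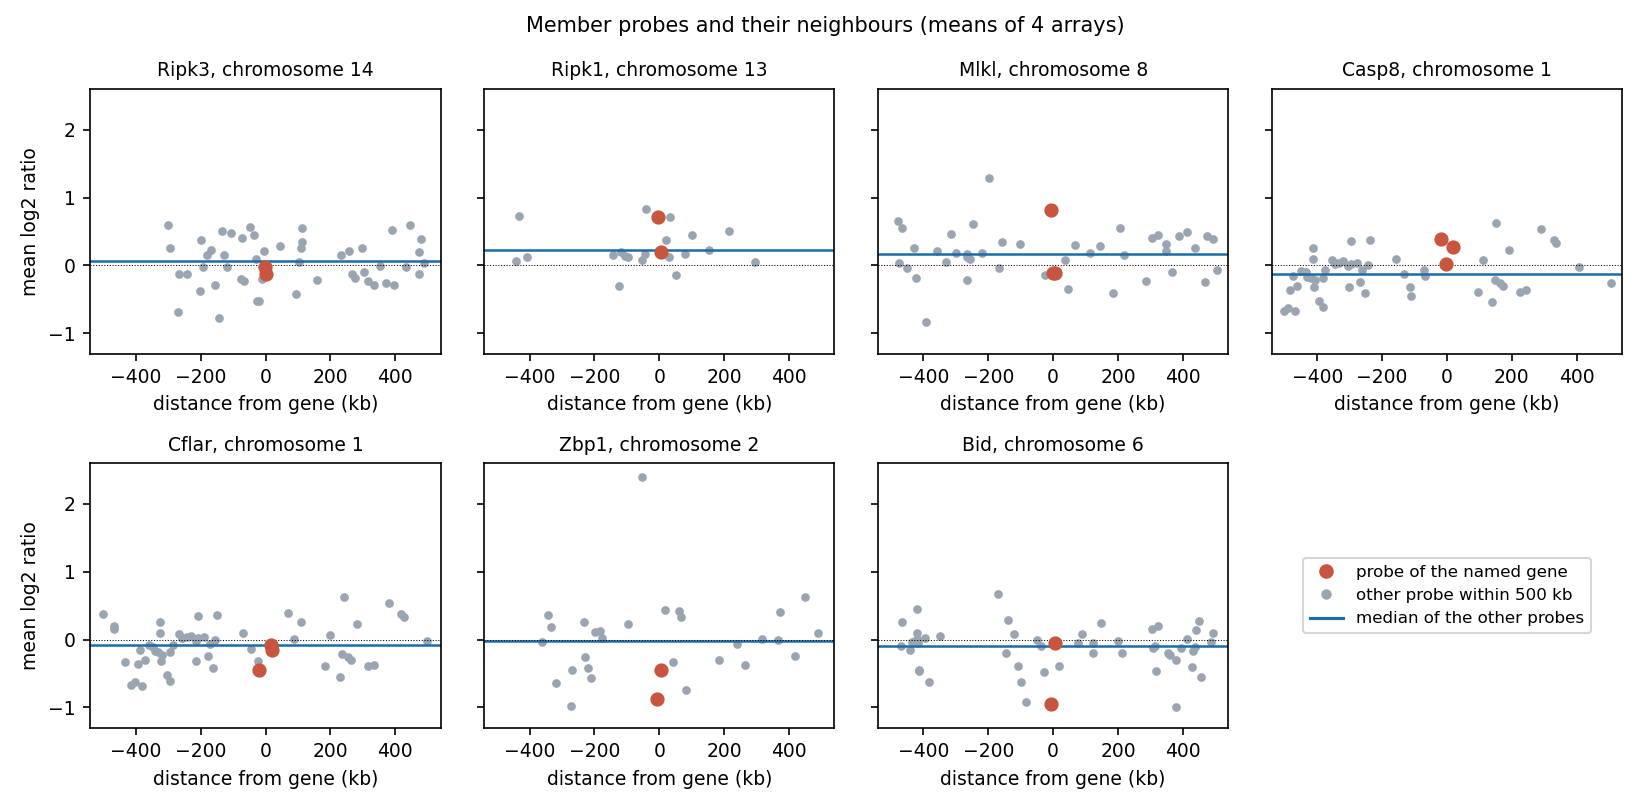
Mean log2 ratio over 4 arrays (vertical axis) is plotted against the distance from the gene in kb for the probes of each gene (red) and all other probes within 500 kb (grey), with the median of the grey probes as a blue line. The red probes do not form plateaus with the grey ones: in Mlkl, Bid and Ripk1, probes of the same gene lie up to 0.93, 0.90 and 0.51 apart.

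Set in order, the gene means ran from Ripk1 at 0.46 through Casp8 at 0.22, Mlkl at 0.20, Ripk3 at -0.075, Cflar at -0.22 and Bid at -0.50 to Zbp1 at -0.665. Ripk1 exceeded Casp8 on all 4 arrays, by 0.24 ± 0.17, and Mlkl exceeded Ripk3 on all 4, by 0.27 ± 0.19. The other neighbours in this order did not differ beyond their spread. The places of Casp8, Cflar, Bid and Zbp1 rest in part on probes that were not well above background on all 4 arrays. With the well-measured probes alone Cflar stood at -0.073, Bid at -0.049, Ripk3 at -0.075 and Zbp1 at -0.45, so that Cflar and Bid no longer lay below Ripk3. In that setting Casp8 stood at 0.14, below Mlkl at 0.20. Casp8 and Mlkl differed by 0.025 ± 0.096, Ripk3 and Cflar by 0.15 ± 0.19, Cflar and Bid by 0.27 ± 0.38, and Bid and Zbp1 by 0.17 ± 0.31. The order also holds the offset of each locus. Less the median of its neighbours, Ripk1 stood at 0.24 ± 0.15, below Casp8 at 0.35 ± 0.055. Mlkl then stood at 0.023 ± 0.18 and Ripk3 at -0.13 ± 0.073. The place of Mlkl rests on 1 of its 3 probes, and with their median it stood at -0.0039.

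By limma 3 of the 7 genes were called, Ripk1 higher and Zbp1 and Bid lower, where 16.1% of all genes were called higher and 19.3% lower. Of the 17 probes 8 were called, 4 higher and 4 lower, against 18.2% and 18.8% of all probes. Against neighbours within 500 kb 9 were called, 4 higher and 5 lower, where the rule called 32.6% of all probes with neighbours (16.4% higher, 16.2% lower). Such shares are large for every gene on this array, so the counts say little about these 7. The median over the member probes was -0.073, and the median over all autosomal probes was -0.0040.

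Only 3 probes kept their calls, against the pool and against their neighbours, in all alternative settings run. They were Ripk1 probe 1, from 0.45 to 0.86 against the pool, Mlkl probe 1, from 0.57 to 0.91, and Zbp1 probe 2, from -0.62 to -0.40. How many of all autosomal probes do the same was not counted, so the number is not read as a trait of these genes. Zbp1 probe 2 also lay within the 5th to 95th percentile of its signal bin, -0.75 to 0.51. In each of the 3 genes no other probe was both called in that direction and well above background on all 4 arrays. At a single probe, a difference of the locus and a property of that probe cannot be told apart.

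**Figure D3:**
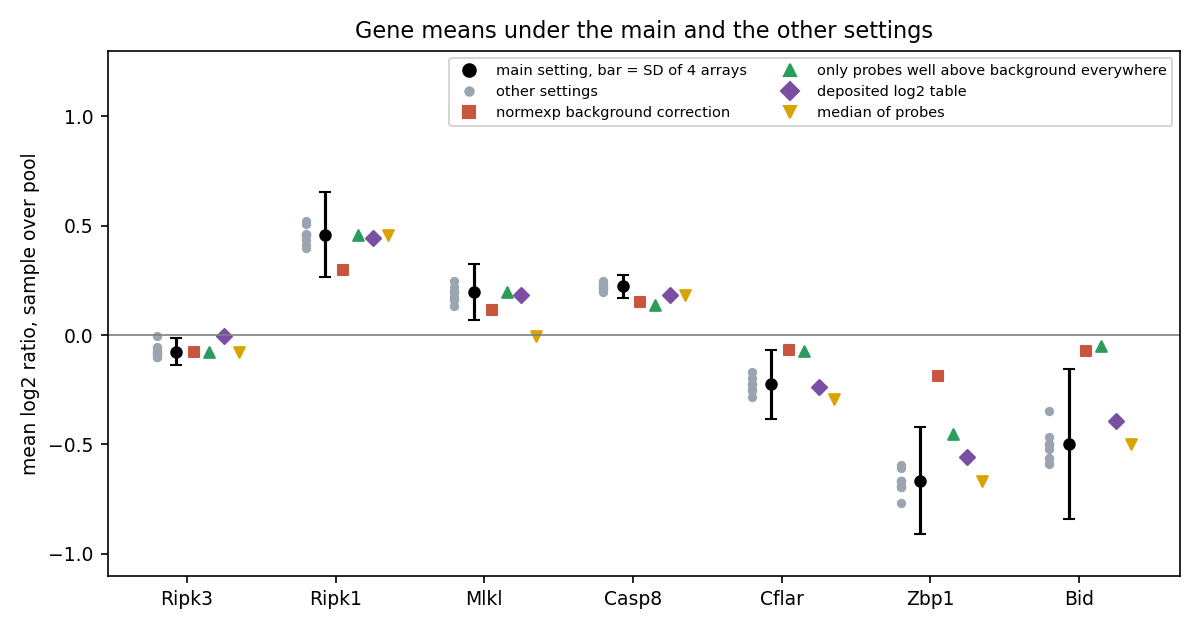
Gene means of the log2 ratio (vertical axis) are shown for the 7 genes in the main setting (black, bar = SD of 4 arrays) and in the other settings, with coloured symbols for 4 of them. Ripk1 stays at or above 0.299 and Ripk3 within 0.10 of 0, whereas Bid moves from -0.50 to -0.073 with normexp and to -0.049 among probes well above background everywhere.

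Among the 17 probes the dimmer ones had less steady ratios and, less closely, larger ones. Of the 17 probes 12 were well above background in both channels on all 4 arrays, and 4 of these were called. The remaining 5, in Casp8, Cflar, Zbp1 and Bid, held the other 4 calls. Over all autosomal probes the shares ran the other way, with 38.5% called among well-measured probes and 29.9% among the others. The SD between arrays was 0.053 to 0.34 for the 12 and 0.26 to 0.60 for the 5. Their median SDs were 0.14 and 0.37, close to the 0.18 and 0.39 of all autosomal probes of each kind. Across the 17 probes the SD ran against the pool signal (Spearman's rho -0.76), and the absolute mean ratio did so less closely (rho -0.39). These probes share 4 arrays, and over all autosomal probes the second value was -0.038. There the median absolute ratio was 0.346 at pool signals under 200 and 0.264 from 200 to 400. It was 0.233 from 400 to 800, 0.236 from 800 to 1600 and 0.255 above that. Larger ratios at dim probes were thus also seen over the whole array, though not as a steady fall with signal.

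**Figure D4:**
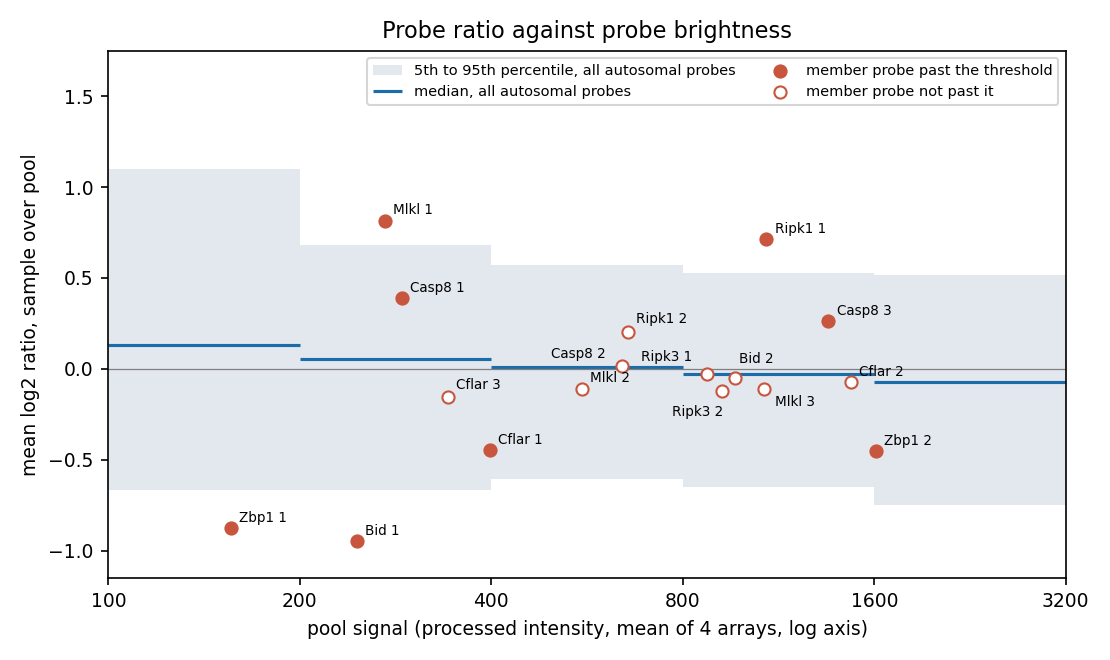
The mean log2 ratio of each member probe (vertical axis) is set against its mean pool signal (log axis), over the 5th to 95th percentile (grey) and median (blue) of all autosomal probes in 5 signal bins, of which the outer 2 are open-ended. Zbp1 probe 1, Bid probe 1, Mlkl probe 1 and Ripk1 probe 1 lie outside the grey band of their bin, and both Ripk3 probes lie near its centre.

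No member probe differed between slides at the adjusted threshold (limma, 0 of 17, with 0 of 52385 over all autosomal probes). At an unadjusted p under 0.05 there were 3 of 17, against 9.90% of all probes. These were probe 2 of Ripk1, at -0.083 on slide 1 and 0.49 on slide 2, probe 1 of Casp8, at 0.13 and 0.65, and probe 1 of Bid, at -1.37 and -0.53. The lowest adjusted p by limma was 0.498. With 2 arrays a slide and different samples on each, slide and sample cannot be told apart.

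Likeness was measured as the root mean square difference of the 4 array values, over the other autosomal genes with at least 2 probes. Ripk3 lay nearest to Rfx1 (0.0065), but 790 of 11767 genes lay within 0.1 of it, so its pattern was a common one. Casp8 lay nearest to Ldb2, Mlkl to Elf1, Cflar to Olfm1 and Ripk1 to Nsd1, with 590, 302, 106 and 31 genes within 0.1. Zbp1 and Bid had 3 and 2 genes within 0.1, the nearest being Gpc1 (0.068) and Exoc5 (0.089). In both genes 1 of the 2 averaged probes was dim in the sample on every array, with an SD of 0.51 in Zbp1 and 0.60 in Bid, so those small counts are not read as a rare pattern.

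Beyond the 7 genes, a list of TNF, death receptor, ubiquitin, interferon and caspase genes was read in the same fit. Of 53 measured genes 7 were called higher and 8 lower, with 38 not past the threshold, where 16.1% and 19.3% of all genes were called. The list median was -0.0014 and that of all genes was -0.015. Fadd, the adaptor that brings caspase-8 to death receptors, read 0.79 ± 0.14 (SD, n = 4) on its only probe. Map3k7, the TAK1 gene named in the genotype, read 0.65 ± 0.13, and its probes read 0.89 ± 0.25 and 0.41 ± 0.12. Both genes lay above the pool on all 4 arrays (limma, adjusted p = 0.00132 and 0.00192). The sources used here do not say whether a Map3k7 probe lies in the deleted stretch.

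The other genes named here from the 8 called genes with the largest ratios lay below the pool. That tilt depends on the cut, as the whole list held 7 genes called higher and 8 lower. Chmp4b, a subunit of the ESCRT machinery that repairs membranes, read -0.49 ± 0.15, with both of its probes called at -0.36 and -0.62. In the next 3 genes only 1 of 2 probes was called. Tnfrsf1a, the main TNF receptor, read -0.58 ± 0.069, with probes at -0.91 ± 0.36 and -0.25 ± 0.30. Pgam5, a mitochondrial phosphatase, read -0.45 ± 0.035, with probes at -0.83 ± 0.12 and -0.071 ± 0.14. Cdc37, the co-chaperone that loads kinases onto HSP90, read -0.41 ± 0.11, with probes at -0.62 ± 0.14 and -0.21 ± 0.29. In each of Tnfrsf1a, Pgam5 and Cdc37 the gene mean had a smaller SD than either probe. The adjusted p of these 4 genes by limma were no higher than 0.00556. Traf5, a TNF receptor adaptor, read -0.45 ± 0.22 (limma, adjusted p = 0.0123), with probes at -1.12, -0.15 and -0.068, and its call ended at -0.21 when the median of the probes was taken.

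**Figure D5:**
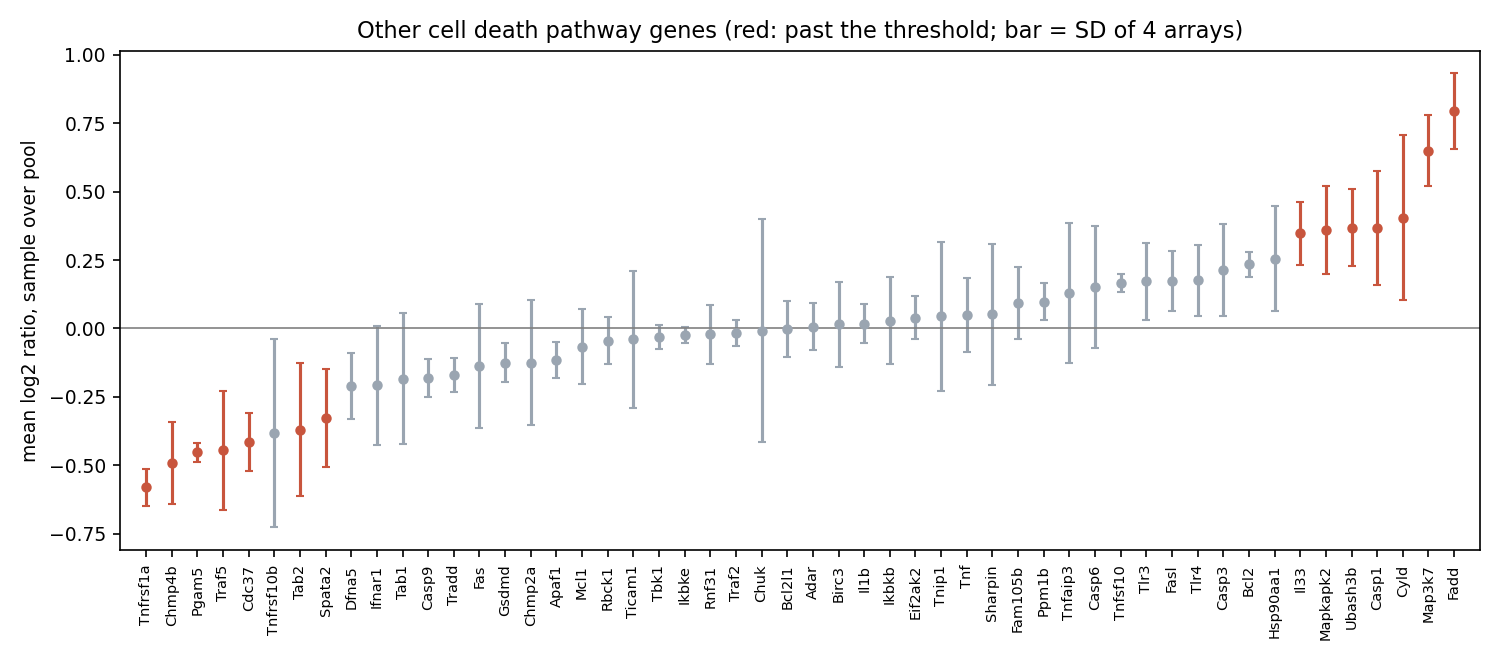
Mean log2 ratios with SD over 4 arrays (vertical axis) are shown for 52 genes of the wider cell death list, sorted by value, with called genes in red. They range from Tnfrsf1a at -0.58 to Fadd at 0.79, and 38 of them were not called.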

How the data were processed

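Spot intensity values were deposited as Agilent Feature Extraction 10.10.1.1 output. Per the file headers, spatial and multiplicative detrending and dye normalisation had been applied to the processed signals. The deposited log10 ratios were used only as a check. A deposited table of log2 values, whose normalisation and centring are not given in the sources used here, was also run. Each column's Pearson correlation was 0.912 to 0.923 with its own array's scanner ratios and at most 0.689 with another array's, and the column medians were -0.035, 0.029, 0.052 and 0.005. Its direction and scale were read from that comparison.

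From processed Cy5 over Cy3 the log2 ratio was taken, controls and outlier-flagged spots were dropped, spots of a probe and probes of a gene were averaged, and arrays were centred on the autosomal median. Tests were limma 3.58.1 in R 4.3.3 against 0, with Benjamini-Hochberg adjustment over all autosomal genes or probes. The neighbour test subtracted, per array, the median of at least 5 other probes within 500 kb. Its p-values measure the spread between arrays and not the spread between the neighbouring probes. Bounds set a dim channel at the higher of its own signal and the lowest signal well above background. Without dye swaps, dye bias can affect them.

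The members, the wider list and the tests were chosen with earlier results of these data known. Named genes are the 7 members, the nearest named gene on each side, the gene most alike, and from the wider list Map3k7 and the 8 called genes with the largest ratios, 1 of which is not reported here. Alternatives covered background correction, brightness filter, centring, outlier spots, GC content, slide, replicates, neighbour window and probe averaging.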

Additional observations from a re-analysis of the deposited data

Results flagged for a closer look

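Of 49 sets of 4 array values tested for a lone outlier, 1 stood out, while chance flags about 1 in 20. The gene mean of Casp8 was 0.14 on replicate 2, far from the other 3 arrays relative to their spread, since those lay at 0.248 or just above. The single probes were not that close on replicates 1, 3 and 4. Probe 1 read 0.19, 0.62 and 0.68 there, and probe 2 read 0.19, -0.14 and -0.11, so their opposite shifts cancelled in the gene mean.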

How the results depend on the processing

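No paired analysis was possible because there was 1 group and no second group shared its replicate numbers. Of 627 single values compared across settings, 544 kept their direction and their side of the threshold, 53 lost a call, 1 gained a call and 29 changed sign. The cause was not tested. Normexp called 1 gene (Ripk1) in place of 3, and 6029 of all 20445 autosomal genes in place of 7236. In place of 8 probes the deposited table called 5, normexp 4, and the restriction to probes well above background everywhere 4, with 12 of the 17 measured. Over all autosomal probes, 19349 of 52385 calls in the main setting became 18341 of 52393 in the deposited table. Normexp called 19208 of 52385 there, and the restriction 19631 of 43083. Against neighbours, 5 in place of 9 were called with normexp and 5 with that restriction. Over all probes with neighbours these settings called 17759 of 50549 and 17629 of 40871. Leaving out each replicate in turn gave 2 to 3 genes, 5 to 7 probes, 5 to 6 probes against neighbours, and 10 to 13 genes of the wider list in place of 15. The calls over all autosomal genes then fell from 7236 to between 5464 and 5974. Those over all autosomal probes fell from 19349 to between 12910 and 14186. No member probe was called between slides in any setting run, although normexp called 34 of all autosomal probes there. Over all probes with neighbours, 16473 calls became 10373 without replicate 1 and 10308 without replicate 2. With slide as a random block 3 genes were called, and the calls of Casp8 probe 1 against the pool and Cflar probe 1 against neighbours ended (limma, adjusted p = 0.0503 and 0.0502). With slide means as 2 samples 2 genes were called and Bid was not (limma, adjusted p = 0.0516), and 6 probes were called against the pool and 6 against neighbours. The counts over the whole array with slide means were 5143 genes, 15286 probes against the pool and 13698 against neighbours. The median of probes called Cflar, at -0.29.

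Sign changes against the pool were as follows. The median of probes put Mlkl at -0.0039. Ripk3 probe 1 read 0.038 with the GC correction and 0.037 in the deposited table. Casp8 probe 2 read -0.0092 centred on the mode, -0.0525 in the deposited table, and from -0.043 to 0.066 with 1 replicate left out. In the same way Cflar probe 2 ranged from -0.12 to 0.024 and Bid probe 2 from -0.13 to 0.011. With normexp Cflar probe 3 read 0.061 and Zbp1 probe 1 read 0.13. Of these values only that of Zbp1 probe 1 had been called.

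Against neighbours, Ripk3 probe 1 read 0.0075 in the deposited table. Ripk1 probe 2 read 0.056 with the GC correction, 0.032 with normexp, and from -0.11 to 0.068 with 1 replicate left out. Cflar probe 2 read -0.0063 with the GC correction, -0.073 within 250 kb, -0.11 with normexp, and from -0.041 to 0.12 with 1 replicate left out. Cflar probe 3 read 0.14 with normexp and from -0.24 to 0.017 with 1 replicate left out. With normexp Zbp1 probe 1 read 0.17 and Bid probe 1 read 0.061, and both had been called lower. Bid probe 2 read -0.043 with the GC correction, -0.0020 within 1 Mb, and from -0.036 to 0.11 with 1 replicate left out.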
